A study of Mus musculus with 9 samples.

Results

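The genes described here encode the liver's AMP-activated protein kinase (AMPK) and its surroundings. They are the catalytic subunits Prkaa1 and Prkaa2, the scaffold subunits Prkab1 and Prkab2, and the nucleotide-binding subunits Prkag1 and Prkag2. With them stand the upstream kinase Stk11 (LKB1), the coactivators Ppargc1a and Ppargc1b, which encode PGC-1 alpha and PGC-1 beta, and the mitochondrial carrier Ucp2. They were chosen by name, as the rows of the deposited table that carry these 10 symbols. Each of the 10 was found once among the 35275 entries, and each was among the 13151 genes that passed the filter on low counts. RNA of mouse liver had been sequenced in 9 libraries. Of these, 3 came from C57BL/6 mice given AdipoRonPEG5, a PEGylated analog of AdipoRon, 3 from mice given AdipoRon, which acts on the adiponectin receptors, and 3 from mice given vehicle. The labels name 5 mg/kg in 2 daily injections over 5 days and put PBS in the same list, which leaves the dose of either compound uncertain. They give no sex, age, diet or insulin state for these livers, although the title of the study names insulin-deficient mice and high-fat feeding.

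AMPK is a complex of 1 catalytic, 1 scaffold and 1 nucleotide-binding subunit. It is switched on by a phosphate that LKB1 places on the catalytic subunit when AMP or ADP is bound to the nucleotide-binding subunit, so that its activity is not read from mRNA. In liver, active AMPK restrains fatty acid and cholesterol synthesis. PGC-1 alpha is induced in fasted liver, where it coactivates genes of gluconeogenesis and of fatty acid oxidation, while PGC-1 beta also coactivates SREBP in lipid synthesis. Signals of the adiponectin receptors are known to pass through AMPK and PPAR-alpha. Ucp2 belongs to the mitochondrial carriers of the inner membrane and was found in rat liver mainly in Kupffer cells.

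Ucp2 showed the largest difference of the 10 genes. With AdipoRonPEG5 it was 3.09 times its vehicle level, and it was also higher with AdipoRonPEG5 than with AdipoRon. The catalytic subunit Prkaa2 rose slightly with AdipoRonPEG5, to 1.20 times vehicle, and its call was lost in most alternative settings. Ppargc1b was lower with AdipoRonPEG5 than with AdipoRon, at 0.481 of its level there. That call was lost in 6 of 17 alternative settings, and the Ucp2 call between the compounds in 5 of 17. None of the scaffold or nucleotide-binding subunits, nor Prkaa1, Stk11 or Ppargc1a, passed the test in any of the 3 comparisons.

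The libraries held between 13942322 and 18508950 counts, with 39473195 in vehicle 1. The lowest count of any of the 10 genes in any library was 29, for Prkab2 in vehicle 3, far above a floor of 3 counts. As a check of the tissue, 10 hepatocyte markers summed to 86480 to 95100 CPM (counts per 1e+06) with AdipoRonPEG5, 82240 to 91500 CPM with AdipoRon and 95590 to 107300 CPM with vehicle. Markers of skeletal muscle, the other large source of Prkaa2, summed to at most 0.373 CPM in any library. Vehicle 3 and AdipoRonPEG5 1 stood apart in the acute phase gene Saa1, at 4950 and 1950 CPM, while the other 7 libraries held 45.0 to 496 CPM. Whether each library is from its own animal is not in the labels, so the p-values measure only the spread between these libraries, which may be technical. In bulk liver, fewer cells of a type and less RNA per cell cannot be told apart.

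Per gene length, the genes lay at FPKM (fragments per kilobase of gene length and per 1e+06 reads) from 0.390 to 34.7. Stk11 was the highest in all 3 groups and Prkab2 the lowest, and neither overlapped its neighbour in the order. In AdipoRonPEG5 livers Ucp2 came second, at 16.9 ± 2.17 FPKM (SD, n = 3), clear of Stk11 above it and of Prkab1 below it. In AdipoRon livers Ucp2 was in place 4, and its libraries overlapped those of Prkab1 above and of Prkaa2 below. In vehicle livers it was in place 6, at 5.16 ± 1.09 FPKM, overlapping Prkaa2 and clear of Prkaa1. Prkag2 and Prkaa2 overlapped with AdipoRonPEG5, Prkag2 and Prkab1 with AdipoRon, and Prkab1, Prkag2 and Prkag1 in vehicle, each with its next in order. Below them, Ppargc1b overlapped Prkaa1 with AdipoRon, and Prkaa1, Ppargc1b and Ppargc1a ran into each other in vehicle.

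**Figure D1:**
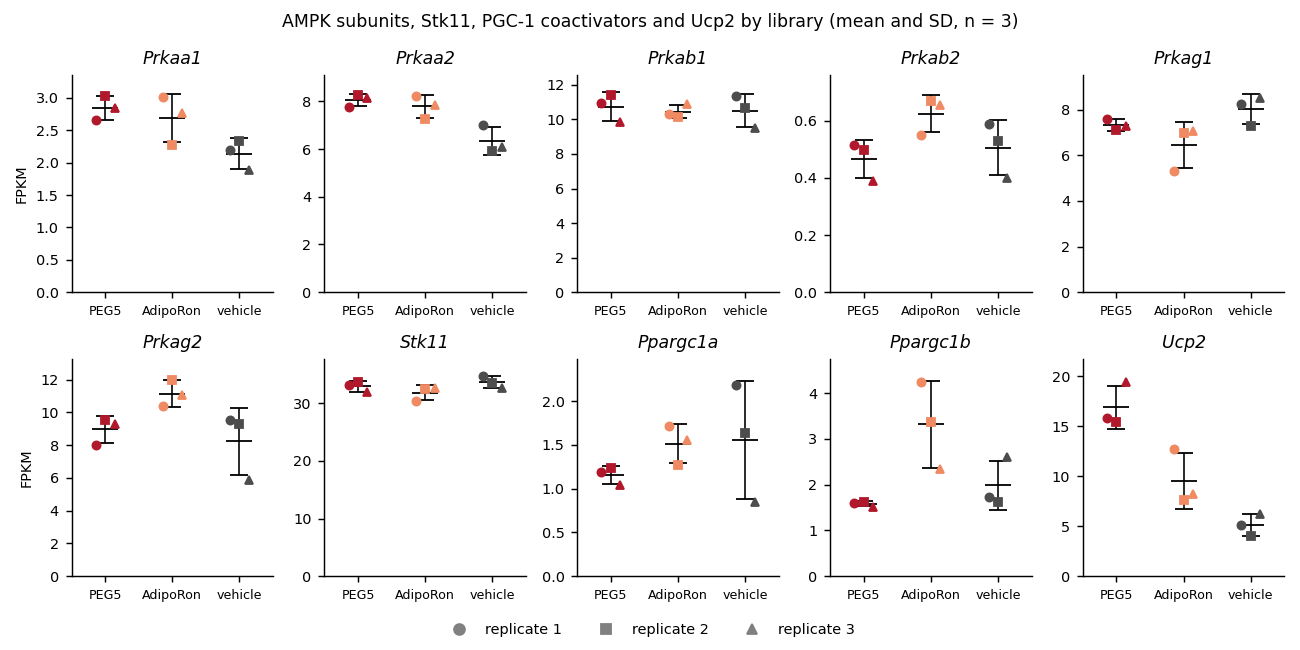
Deposited FPKM of each gene (y axis, from 0) in the AdipoRonPEG5 (PEG5), AdipoRon and vehicle livers (x axis). Points are libraries, with marker shapes for replicate numbers, and bars give the mean and SD of 3. Ucp2 was at 15.5 to 19.4 FPKM in AdipoRonPEG5 livers, above all other libraries, while Stk11 stayed between 30.4 and 34.7 FPKM throughout.

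Stk11, the kinase that activates AMPK, was at 33.2, 33.7 and 31.9 FPKM in AdipoRonPEG5 livers, 30.4, 32.5 and 32.6 FPKM in AdipoRon livers and 34.7, 33.5 and 32.6 FPKM in vehicle livers. The groups overlapped on this scale. After TMM scaling of the counts, which is used for all fold changes, the 3 libraries of each compound lay below the 3 of vehicle. The log2 fold change was -0.11 ± 0.065 (SE) for AdipoRonPEG5 (edgeR p adjusted by Benjamini-Hochberg = 0.261) and -0.18 ± 0.065 with AdipoRon (adjusted p = 0.134). Between the compounds it differed by 0.066 on the log2 scale (95% confidence interval -0.077 to 0.21).

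The group means of both catalytic subunits were highest with AdipoRonPEG5, while its libraries overlapped those of AdipoRon. Prkaa2, the alpha subunit that dominates in skeletal muscle and is also made in liver, was at 7.77, 8.26 and 8.15 FPKM in AdipoRonPEG5 livers, 8.23, 7.26 and 7.86 FPKM in AdipoRon livers and 7.01, 5.93 and 6.07 FPKM in vehicle livers. All 6 libraries of the compounds lay above the 3 of vehicle in FPKM, while in CPM AdipoRon 2 fell just under vehicle 1. With AdipoRonPEG5, Prkaa2 rose by 0.26 ± 0.077 (log2 fold change ± SE, edgeR p adjusted by Benjamini-Hochberg = 0.0395). That call ended without AdipoRon 3, AdipoRonPEG5 1, AdipoRonPEG5 2, AdipoRonPEG5 3, vehicle 2 or vehicle 3. It also ended with no filter on low counts, with only the 2 groups compared, with a replicate block, and without vehicle 3 and AdipoRonPEG5 1 together (range of adjusted p 0.0558 to 0.15, with log2 fold changes from 0.21 to 0.29). With AdipoRon, Prkaa2 had a log2 fold change of 0.19 ± 0.077 (adjusted p = 0.171), and the compounds differed by 0.068 (95% confidence interval -0.10 to 0.24).

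Prkaa1, the other alpha subunit, was at 2.67, 3.03 and 2.84 FPKM in AdipoRonPEG5 livers, 3.01, 2.28 and 2.76 FPKM in AdipoRon livers and 2.20, 2.34 and 1.88 FPKM in vehicle livers. The AdipoRonPEG5 libraries did not overlap those of vehicle, and AdipoRon 2 lay within the vehicle range. Its log2 fold change was 0.33 ± 0.12 with AdipoRonPEG5 (edgeR p adjusted by Benjamini-Hochberg = 0.0963) and 0.22 ± 0.13 with AdipoRon (adjusted p = 0.329), neither of which passed. The compounds differed by 0.10 (95% confidence interval -0.17 to 0.38).

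The promoter of Prkaa2 is shown because it is the subunit gene that passed the test, beside that of Ucp2, the other gene that passed against vehicle. The sequences are RefSeq's, on build GRCm38.p6, and run from 250 bases before to 50 bases after the annotated start. Of the 10 genes, 9 had a promoter to examine, and Prkag2 had 3 annotated starts, which counts per gene do not separate. Capitals mark matches, on either strand, to any of the motifs searched. These were the CRE half-site TGACG, the full CRE TGACGTCA, the E-box CACGTG, the GC box GGGCGG, the CCAAT box, the nuclear receptor half-site AGGTCA, the TATA box TATAAA and the antioxidant response element TGACNNNGC.
Prkaa2 promoter (GRCm38.p6, chr4:105109849-105110148, - strand): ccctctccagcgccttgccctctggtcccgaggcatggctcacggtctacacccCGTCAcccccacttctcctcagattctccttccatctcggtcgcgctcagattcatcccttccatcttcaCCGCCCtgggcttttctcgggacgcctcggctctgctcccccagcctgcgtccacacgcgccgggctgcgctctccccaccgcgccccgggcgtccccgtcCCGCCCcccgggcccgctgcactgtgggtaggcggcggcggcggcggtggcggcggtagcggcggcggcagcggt
Ucp2 promoter (GRCm38.p6, chr7:100493108-100493407, + strand): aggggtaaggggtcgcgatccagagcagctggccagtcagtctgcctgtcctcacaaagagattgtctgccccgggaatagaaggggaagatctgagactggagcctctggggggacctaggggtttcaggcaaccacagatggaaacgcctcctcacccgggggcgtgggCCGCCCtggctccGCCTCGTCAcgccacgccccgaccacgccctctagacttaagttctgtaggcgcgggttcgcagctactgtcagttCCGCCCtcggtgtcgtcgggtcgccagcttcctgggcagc
The Prkaa2 promoter holds 1 CRE half-site and 2 GC boxes, all on the reverse strand, and 72.7% of its bases are G or C. The Ucp2 promoter holds 2 GC boxes on the reverse strand and 1 antioxidant response element, GCCTCGTCA as printed, with a CRE half-site inside it. Of all 32851 promoters of this length in the RefSeq table, 12.4% hold that element, 20.8% a CRE half-site and 35.7% a GC box. Neither promoter holds an E-box, which 7.15% of promoters have, a nuclear receptor half-site (16.3%), a CCAAT box (37.4%), a TATA box (13.6%) or a full CRE (1.79%). A match is only a description of the letters.

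The scaffold subunits bind the catalytic and the nucleotide-binding subunit and carry the domain that binds glycogen. Prkab1, the main beta subunit gene in these livers, was at 11.0, 11.4 and 9.83 FPKM with AdipoRonPEG5, 10.3, 10.2 and 10.9 FPKM with AdipoRon and 11.4, 10.6 and 9.48 FPKM with vehicle. The groups overlapped, and the log2 fold change was -0.054 ± 0.083 with AdipoRonPEG5 and -0.11 ± 0.083 with AdipoRon (edgeR p adjusted by Benjamini-Hochberg = 0.708 and 0.487). Prkab2 was at 0.513, 0.496 and 0.390 FPKM with AdipoRonPEG5, 0.549, 0.669 and 0.656 FPKM with AdipoRon and 0.587, 0.530 and 0.400 FPKM with vehicle. All AdipoRonPEG5 libraries lay below all AdipoRon libraries for Prkab2. The difference between the compounds was -0.41 on the log2 scale (95% confidence interval -0.86 to 0.044, adjusted p = 0.28), and that of Prkab1 was 0.056 (95% confidence interval -0.13 to 0.24).

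The nucleotide-binding subunits sense AMP, ADP and ATP. Prkag1 was at 7.62, 7.09 and 7.29 FPKM with AdipoRonPEG5, 5.31, 6.998 and 7.08 FPKM with AdipoRon and 8.26, 7.27 and 8.51 FPKM with vehicle. In CPM the libraries of both compounds lay below all of vehicle, with log2 fold changes of -0.21 ± 0.13 for AdipoRonPEG5 and -0.41 ± 0.13 for AdipoRon (edgeR p adjusted by Benjamini-Hochberg = 0.303 and 0.101). Prkag2 was at 8.04, 9.55 and 9.30 FPKM with AdipoRonPEG5, 10.4, 11.99 and 11.0 FPKM with AdipoRon and 9.54, 9.26 and 5.86 FPKM with vehicle. The AdipoRon libraries were above all others, and vehicle 3 was the lowest of the 9. The log2 fold change of Prkag2 was 0.34 ± 0.15 with AdipoRon (adjusted p = 0.211) and 0.039 ± 0.15 with AdipoRonPEG5 (adjusted p = 0.892), and without vehicle 3 the AdipoRon value was 0.16 (adjusted p = 0.393) and the AdipoRonPEG5 value turned to -0.13. Without AdipoRonPEG5 3 it was -0.011. Between the compounds Prkag2 differed by -0.30 (95% confidence interval -0.62 to 0.028) and Prkag1 by 0.20 (-0.10 to 0.49), or by 0.070 without AdipoRon 1. In GENCODE M21, exons of Prkag2 overlap the antisense genes Prkag2os1 and Prkag2os2, which had 3 to 45 counts in each library, and the strand setting of the counting is not given. Prkag1 likewise overlaps B130046B21Rik, with at most 4 counts in a library, and Prkab2 overlaps Gm17651, with 0 counts. Stk11 overlaps Cbarp on the other strand, a symbol with no counts to examine.

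The paralogs divide each subunit position, and shares of the summed FPKM of a pair do not depend on how libraries are scaled. Prkaa2 made up 73.9 ± 0.666% of the alpha transcripts in AdipoRonPEG5 livers, 74.5 ± 1.49% in AdipoRon livers and 74.7 ± 2.62% in vehicle livers (SD, n = 3). Prkab2 made up 4.15 ± 0.333%, 5.64 ± 0.554% and 4.57 ± 0.459% of the beta transcripts in AdipoRonPEG5, AdipoRon and vehicle livers. The alpha make-up was thus nearly level, and every AdipoRon library had a larger beta-2 share than any other library. Prkag2 made up 51.3, 57.4 and 56.0% of the gamma transcripts with AdipoRonPEG5, 66.1, 63.2 and 60.9% with AdipoRon and 53.6, 56.0 and 40.8% with vehicle. Here too each AdipoRon library was above the other 6. The gamma difference was 13.3 percentage points for AdipoRon against vehicle and -8.47 points for AdipoRonPEG5 against AdipoRon. The first of these was 8.58 points without vehicle 3, and the difference of AdipoRonPEG5 against vehicle was 4.78 points, or 0.108 points without vehicle 3. With 3 libraries against 3, the exact two-sided permutation test cannot go below p = 0.10, the value reached in both of these and for the beta pair (p = 0.24 after Benjamini-Hochberg adjustment over 12 tests of shares), so that none of them passes.

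**Figure D2:**
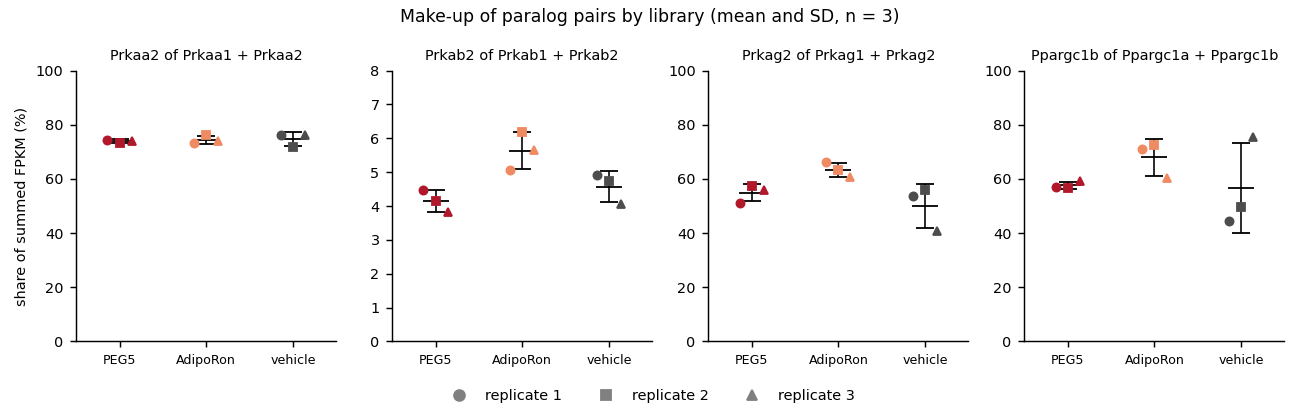
Share of the named gene in the summed FPKM of its pair (y axis, percent, with a scale of 0 to 8 for the beta pair) in AdipoRonPEG5 (PEG5), AdipoRon and vehicle livers (x axis). Points are libraries and bars the mean and SD of 3. The gamma share of Prkag2 was 60.9% to 66.1% in AdipoRon livers and at most 57.4% elsewhere, while the alpha share of Prkaa2 was between 71.7% and 76.3% in all libraries.

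The coactivators differed from each other. Ppargc1b, whose product PGC-1 beta coactivates nuclear receptors and SREBP, was at 1.59, 1.63 and 1.52 FPKM in AdipoRonPEG5 livers, 4.23, 3.37 and 2.35 FPKM in AdipoRon livers and 1.74, 1.63 and 2.60 FPKM in vehicle livers. The AdipoRonPEG5 libraries were tightly grouped and lower than all of AdipoRon, and AdipoRon 3 and vehicle 3 overlapped. Between the compounds Ppargc1b was lower with AdipoRonPEG5, by a log2 fold change of -1.05 ± 0.23 (95% confidence interval -1.57 to -0.54, edgeR p adjusted by Benjamini-Hochberg = 0.0271). Leaving out AdipoRonPEG5 1, 2 or 3 or AdipoRon 1 or 2 ended the call, as did a replicate block (range of adjusted p 0.0693 to 0.0955). Without AdipoRon 1, the highest library, the value was -0.85. Against vehicle neither compound passed, with log2 fold changes of -0.41 ± 0.24 for AdipoRonPEG5 (adjusted p = 0.269) and 0.65 ± 0.23 for AdipoRon (adjusted p = 0.126). Without vehicle 3 the AdipoRonPEG5 value was -0.16 (adjusted p = 0.651) and the AdipoRon value 0.89 (adjusted p = 0.0387).

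Ppargc1a, whose product PGC-1 alpha is the fasting-induced coactivator, was at 1.19, 1.24 and 1.05 FPKM in AdipoRonPEG5 livers, 1.71, 1.27 and 1.56 FPKM in AdipoRon livers and 2.19, 1.64 and 0.843 FPKM in vehicle livers. The vehicle libraries held both the highest and the lowest value of the 9. Its log2 fold change was -0.53 ± 0.26 with AdipoRonPEG5 (edgeR p adjusted by Benjamini-Hochberg = 0.184) and -0.17 ± 0.25 with AdipoRon (adjusted p = 0.754). Without vehicle 3, which was high in Saa1, the AdipoRonPEG5 value was -0.80 (adjusted p = 0.00714), and without vehicle 3 and AdipoRonPEG5 1 it was -0.82 (adjusted p = 0.0189). Without vehicle 1 the AdipoRonPEG5 value was -0.20 (adjusted p = 0.625), and the AdipoRon value turned to 0.16 (adjusted p = 0.754). Between the compounds Ppargc1a differed by -0.37 (95% confidence interval -0.94 to 0.21). Vehicle 3 was also the library with the highest share of Ppargc1b in the PGC-1 pair, at 75.5%, against 44.3% and 49.8% in the other vehicle libraries. Over the 3 groups that share was 57.7 ± 1.28% with AdipoRonPEG5, 68.0 ± 6.81% with AdipoRon and 56.5 ± 16.7% with vehicle.

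Ucp2, whose promoter is printed above, was at 15.9, 15.5 and 19.4 FPKM in AdipoRonPEG5 livers, 12.7, 7.64 and 8.25 FPKM in AdipoRon livers and 5.16, 4.06 and 6.25 FPKM in vehicle livers. The 3 groups did not overlap, with AdipoRonPEG5 above AdipoRon and AdipoRon above vehicle in every library. Against vehicle, Ucp2 rose with AdipoRonPEG5 by 1.63 ± 0.21 (log2 fold change ± SE, edgeR p adjusted by Benjamini-Hochberg = 0.00076), and this passed in all 17 alternative settings, with values from 1.49 to 1.85. With AdipoRon the log2 fold change was 0.78 ± 0.21 (95% confidence interval 0.33 to 1.24, adjusted p = 0.0543). This value passed with total-count scaling, with no filter on low counts, with DESeq2, and without vehicle 3 alone or with AdipoRonPEG5 1 (adjusted p from 0.00587 to 0.0424). Between the compounds Ucp2 was higher with AdipoRonPEG5, by 0.85 ± 0.20 (95% confidence interval 0.41 to 1.29, adjusted p = 0.0362). Leaving out AdipoRonPEG5 1, 2 or 3 or AdipoRon 2 or 3 ended that call (values from 0.72 to 0.93, adjusted p from 0.0731 to 0.125). Dnajb13, whose exons overlap those of Ucp2 on the other strand in GENCODE M21, had at most 14 counts in a library, against at least 226 for Ucp2.

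Markers of macrophages were higher in the same livers. The 14 macrophage and Kupffer cell markers summed to 889 to 944 CPM with AdipoRonPEG5, 572 to 1020 CPM with AdipoRon and 247 to 392 CPM with vehicle, and none of them was at 0. Of the 14, 12 rose and 0 fell with AdipoRonPEG5, with a median log2 fold change of 1.71, and 11 rose and 0 fell with AdipoRon, with a median of 1.29. Of all genes tested, 9.55% were called higher and 7.63% lower with AdipoRonPEG5, and 3.8% and 1.4% with AdipoRon. Those shares stand beside each count of markers given here. Between the compounds 0 of the 14 passed with edgeR (2 with an unadjusted p under 0.05, 1 with DESeq2 and 0 with limma-voom), and their median log2 difference was 0.27, while that of Ucp2 was 0.85. Within AdipoRon livers, AdipoRon 1 had both the highest marker sum and the highest Ucp2, at 48.9 CPM against 29.8 and 32.2 CPM in AdipoRon 2 and 3. Vehicle 3 was likewise the highest of its group in both. The part of macrophages in the Ucp2 values was not tested. Of 7 tested lymphocyte markers, 5 rose and 1 fell with AdipoRonPEG5, and 3 rose and 0 fell with AdipoRon, with sums of 19.2 to 20.1 CPM with AdipoRonPEG5, 16.3 to 23.6 CPM with AdipoRon and 7.02 to 9.59 CPM with vehicle. The largest part of these sums was Ptprc, a gene not confined to lymphocytes, at 11.0 to 12.8, 10.9 to 15.5 and 3.73 to 5.13 CPM in the same order. In vehicle, Cd3e, Cd79b, Cd79a and Ccl5 had only 3, 15, 17 and 27 counts in all. The gene that fell was Cd4 (log2 fold change -1.40), which limma-voom did not call. With limma-voom 5 rose and 0 fell with AdipoRonPEG5, and 2 rose and 0 fell with AdipoRon. DESeq2 gave the same counts as edgeR. Of 10 hepatocyte markers, 0 rose and 4 fell with AdipoRonPEG5, with a median log2 fold change of -0.33. The 4 were Tat (-1.92), Apoa1 (-0.648), Cps1 (-0.465) and Serpina1a (-0.433). Ttr (0.052), Alb (0.022) and Hnf4a (-0.040) were nearly level, while Ass1 (-0.344), Cyp2e1 (-0.306) and Fgb (-0.188) were lower without passing. This split list stands beside every fall of a liver gene given here for AdipoRonPEG5. With AdipoRon 0 of the 10 passed with edgeR (2 with an unadjusted p under 0.05, 2 with DESeq2 and 0 with limma-voom). The part of hepatocyte content in those falls was not tested. Of 10 stellate cell markers 1 rose and 0 fell with AdipoRonPEG5, with a median log2 fold change of 0.54 (all genes -0.0013). At an unadjusted p under 0.05 there were 7, beside 31.4% of all genes, and DESeq2 called 2 higher and limma-voom 3. Of 10 endothelial markers 1 rose and 0 fell with AdipoRonPEG5, with a median of 0.20. There, 2 had an unadjusted p under 0.05, and DESeq2 and limma-voom called 1 higher each.

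**Figure D3:**
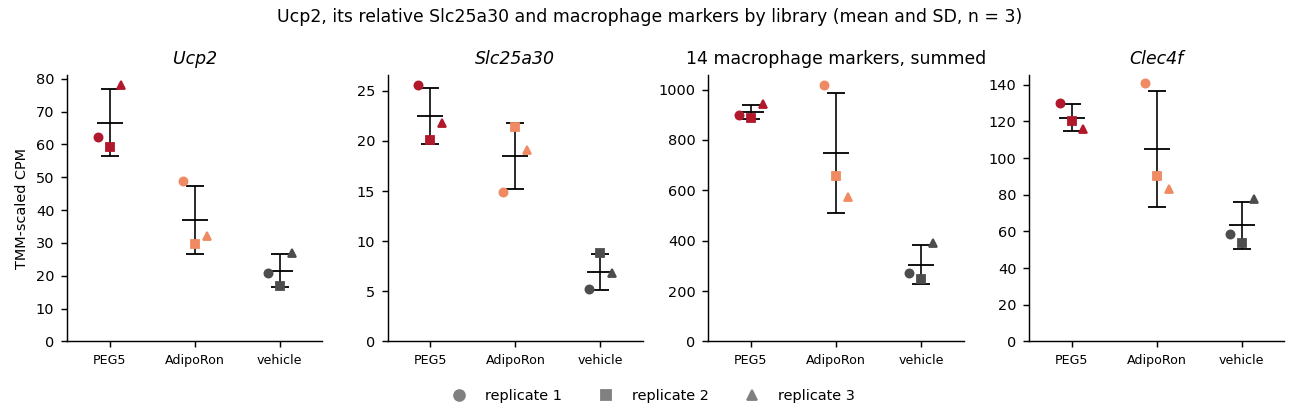
TMM-scaled CPM (y axes, from 0) of Ucp2, of the carrier gene Slc25a30, of 14 macrophage markers summed and of the Kupffer cell marker Clec4f, in AdipoRonPEG5 (PEG5), AdipoRon and vehicle livers (x axis). Points are libraries and bars the mean and SD of 3. Ucp2 was at 59.2 to 78.2 CPM with AdipoRonPEG5 and 29.8 to 48.9 CPM with AdipoRon, while the marker sums of AdipoRonPEG5 libraries (889 to 944 CPM) lay within the range of AdipoRon libraries (572 to 1020 CPM).

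Over the 10 genes, 2 were called higher with AdipoRonPEG5 against vehicle and 0 lower, against 9.55% and 7.63% of all genes tested (17.2% in either direction). With AdipoRon against vehicle 0 of the 10 were called in either direction with edgeR, against 5.2% of all genes (3.8% higher and 1.4% lower). At an unadjusted p under 0.05 there were 6 in that comparison, against 21.9% of all genes, and DESeq2 called 1 of the 10, Ucp2, and limma-voom 0. Between the compounds 1 was called higher and 1 lower with AdipoRonPEG5, against 2.68% and 2.71% of all genes (5.39% in either direction). With so few genes these shares are a description. The CPM ranges of the groups were apart for 6 of the 10 genes with AdipoRonPEG5 against vehicle, against 35.2% of all genes tested. They were apart for 4 with AdipoRon against vehicle (26.8% of all genes) and for 6 between the compounds (28.2%). The median log2 fold change of the 10 was -0.084 with AdipoRonPEG5 (all genes -0.0013) and 0.19 with AdipoRon (all genes 0.0057), and the comparisons against vehicle share the vehicle libraries.

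**Figure D4:**
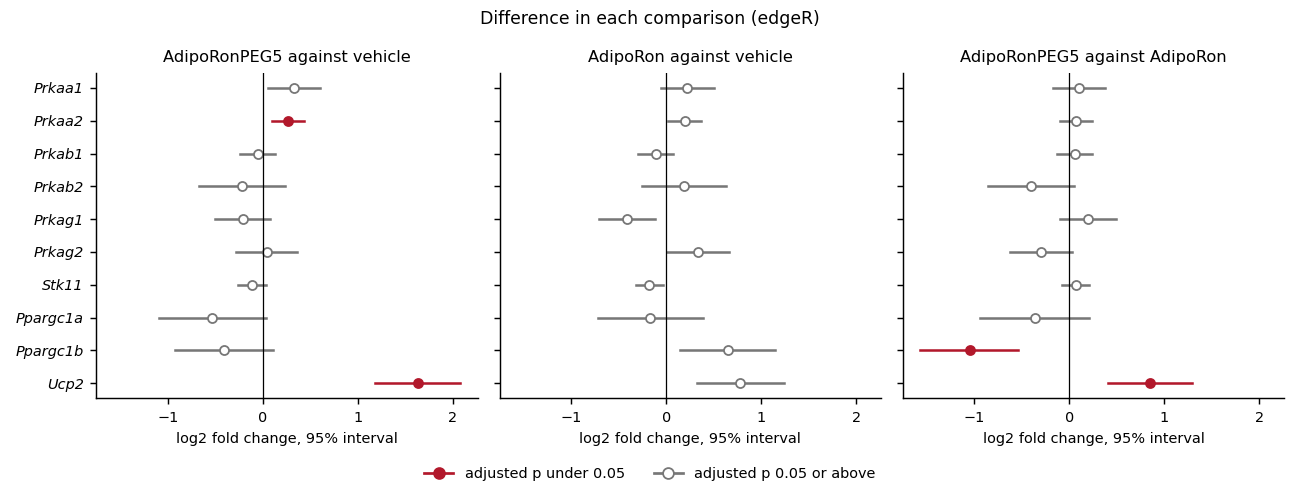
Log2 fold change with its 95% confidence interval (x axis) for each gene (rows) in the 3 comparisons, from the edgeR fit of all 9 libraries. Filled red points passed at an adjusted p under 0.05. Ucp2 and Prkaa2 passed with AdipoRonPEG5 against vehicle, none with AdipoRon against vehicle, and Ppargc1b and Ucp2 between the compounds.

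Relatives of Ucp2 were compared next. Ucp1, the uncoupling protein of brown fat, had 0 counts in all libraries, and Ucp3, that of muscle, had 4, 4 and 1 counts in all in AdipoRonPEG5, AdipoRon and vehicle livers. Of the 7 tested relatives, 2 rose and 0 fell with each compound against vehicle, beside 9.55% of all genes called higher with AdipoRonPEG5 and 3.8% with AdipoRon. Slc25a30, a mitochondrial carrier close to the uncoupling proteins, was at 25.6, 20.1 and 21.8 CPM with AdipoRonPEG5, 14.9, 21.4 and 19.1 CPM with AdipoRon and 5.21, 8.81 and 6.84 CPM with vehicle. Both compounds lay above vehicle in every library, with log2 fold changes of 1.73 ± 0.20 for AdipoRonPEG5 and 1.45 ± 0.20 for AdipoRon (edgeR p adjusted by Benjamini-Hochberg = 0.000427 and 0.00364), and both calls held in all 17 alternative settings. Between the compounds Slc25a30 differed by 0.29 (adjusted p = 0.39). Slc25a4, the adenine nucleotide translocase of muscle and heart, had log2 fold changes of 0.74 ± 0.19 for AdipoRonPEG5 and 0.75 ± 0.19 for AdipoRon (adjusted p = 0.0197 and 0.0443). The AdipoRonPEG5 call of Slc25a4 ended without AdipoRonPEG5 1, AdipoRonPEG5 3 or vehicle 2, or without vehicle 3 and AdipoRonPEG5 1 together (range of adjusted p 0.0501 to 0.0885). Its AdipoRon call ended in 12 of 17 settings (adjusted p from 0.0573 to 0.14), among them each library left out except AdipoRon 2.

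Among genes that act on AMPK, 15 upstream kinases and partners were tested. Of these, 2 rose and 1 fell with AdipoRonPEG5 against vehicle, a share near the 17.2% of all genes called. Stradb, a pseudokinase of the LKB1 complex, was at 39.8 ± 2.27 CPM with AdipoRonPEG5 and 29.8 ± 3.04 CPM with vehicle (SD, n = 3, log2 fold change 0.41 ± 0.093, edgeR p adjusted by Benjamini-Hochberg = 0.0131), a call that ended without AdipoRonPEG5 2 (adjusted p = 0.051). Sesn3, a sestrin, had a log2 fold change of 0.60 ± 0.17, and that call ended without AdipoRonPEG5 2, AdipoRonPEG5 3, vehicle 1 or vehicle 2, with a replicate block or with only the 2 groups compared (adjusted p from 0.0518 to 0.121). Fnip2, a partner of folliculin that binds AMPK, had a log2 fold change of -0.42 ± 0.10, and its call ended without AdipoRonPEG5 1, AdipoRonPEG5 2 or vehicle 1, without vehicle 3 and AdipoRonPEG5 1 as a pair, or with total-count scaling (adjusted p from 0.0524 to 0.067). With AdipoRon against vehicle and between the compounds 0 of the 15 passed with edgeR. At an unadjusted p under 0.05 there were 4 and 5, against 21.9% and 21.8% of all genes, and DESeq2 called 1 in each and limma-voom 0.

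Of 16 AMPK substrates, 1 rose and 3 fell with AdipoRonPEG5 against vehicle, beside 9.55% of all genes called higher and 7.63% called lower. Acaca, the acetyl-CoA carboxylase of fatty acid synthesis, was at 53.3, 61.4 and 74.4 CPM with AdipoRonPEG5, 122, 134 and 94.8 CPM with AdipoRon and 126, 109 and 99.4 CPM with vehicle. The AdipoRonPEG5 libraries were below all the others. Acaca fell against vehicle by 0.83 on the log2 scale (SE 0.15, edgeR p adjusted by Benjamini-Hochberg = 0.0045) and against AdipoRon by 0.89 (SE 0.15, adjusted p = 0.00985), in all 17 alternative settings. Tbc1d1, a Rab GTPase-activating protein of glucose transport, rose by 0.92 ± 0.17 with AdipoRonPEG5 (adjusted p = 0.00435), also in all 17. Srebf1, a regulator of lipid synthesis, was at -0.68 ± 0.16 (adjusted p = 0.0159), and its call ended without AdipoRonPEG5 1 or AdipoRonPEG5 2 (adjusted p of 0.0603 at most). Without AdipoRonPEG5 1 or without AdipoRonPEG5 2 the count of falls was 1. With AdipoRon against vehicle 0 of the 16 passed with edgeR (4 with an unadjusted p under 0.05, beside 21.9% of all genes, 1 with DESeq2 and 0 with limma-voom), and between the compounds Acaca was the 1 that passed, while DESeq2 called 3 lower. Of 10 tested AMPK-related kinases that LKB1 activates, 0 passed with edgeR in any comparison. At an unadjusted p under 0.05 there were 4 with AdipoRonPEG5, 3 with AdipoRon and 0 between the compounds, beside 31.4%, 21.9% and 21.8% of all genes, where DESeq2 called 0, 2 and 0 and limma-voom 1, 2 and 0.

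Of 22 tested partners and regulators of PGC-1, 0 rose and 2 fell with AdipoRonPEG5 against vehicle, beside 9.55% of all genes called higher and 7.63% called lower. Lpin1, which makes diacylglycerol and also acts with PGC-1 alpha, was at 132, 127 and 251 CPM with AdipoRonPEG5, 822, 338 and 499 CPM with AdipoRon and 433, 751 and 598 CPM with vehicle. Every AdipoRonPEG5 library was below all others. Lpin1 fell by 1.80 on the log2 scale against vehicle (SE 0.35, edgeR p adjusted by Benjamini-Hochberg = 0.00602), in all 17 alternative settings, and by 1.70 against AdipoRon (SE 0.35, adjusted p = 0.0215). The second of these calls ended without AdipoRon 1, AdipoRonPEG5 1 or AdipoRonPEG5 2, without vehicle 3 and AdipoRonPEG5 1 as a pair, or with a replicate block (range of adjusted p 0.0528 to 0.0892). Foxo1, the transcription factor through which insulin restrains gluconeogenesis, was at -0.77 ± 0.20 with AdipoRonPEG5 (adjusted p = 0.0226), a call that ended without AdipoRonPEG5 1, AdipoRonPEG5 2, vehicle 1 or vehicle 2 (adjusted p from 0.0695 to 0.0897). With AdipoRon against vehicle 1 rose and 1 fell, beside 3.8% and 1.4% of all genes. These were the acetyltransferase Ep300, at 0.36 ± 0.070 (adjusted p = 0.0177), and the nuclear receptor Esrrg, at -1.16 ± 0.25 (adjusted p = 0.0247). The Ep300 call ended without AdipoRon 1 or vehicle 1 (adjusted p of 0.071 at most). The Esrrg call ended without any 1 of the AdipoRon libraries, vehicle 1 or vehicle 2, with a replicate block or with only the 2 groups compared (adjusted p from 0.0563 to 0.09). Between the compounds, where 2.71% of all genes were called lower, 0 were higher and 2 lower with AdipoRonPEG5, Lpin1 and the cAMP-responsive factor Creb1 (-0.37 ± 0.085, adjusted p = 0.0314). That call ended in 10 of 17 settings (adjusted p from 0.0507 to 0.126), among them each library of the compounds left out in turn, vehicle 2 left out, and a replicate block.

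Of 20 genes known as targets of PGC-1, 0 rose and 2 fell with AdipoRonPEG5 against vehicle, beside 9.55% of all genes called higher and 7.63% called lower. Pck1, the gluconeogenic enzyme, was at 1210, 1710 and 2410 CPM with AdipoRonPEG5, 4140, 2570 and 2370 CPM with AdipoRon and 3600, 5740 and 4640 CPM with vehicle. It fell with AdipoRonPEG5 by 1.39 on the log2 scale (SE 0.28, edgeR p adjusted by Benjamini-Hochberg = 0.0073), in all 17 settings. Idh3a, of the citric acid cycle, was at -0.39 ± 0.092 (adjusted p = 0.0151), and its call ended without AdipoRonPEG5 1 or AdipoRonPEG5 3, without vehicle 3 and AdipoRonPEG5 1 as a pair, or with total-count scaling (adjusted p from 0.0542 to 0.0687). With AdipoRon, where 1.4% of all genes were called lower, 0 rose and 1 fell, the respiratory chain gene Cox4i1, at -0.37 ± 0.072 (adjusted p = 0.0182). The Cox4i1 call ended without AdipoRon 1, AdipoRon 2 or vehicle 2, with a replicate block, with total-count scaling or with only the 2 groups compared (adjusted p from 0.0513 to 0.0632). Between the compounds 0 of 20 passed with edgeR (6 with an unadjusted p under 0.05, beside 21.8% of all genes, 1 with DESeq2 and 0 with limma-voom). The medians of the target list, -0.058 with AdipoRonPEG5 and -0.099 with AdipoRon, stand beside -0.0013 and 0.0057 over all genes.

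**Figure D5:**
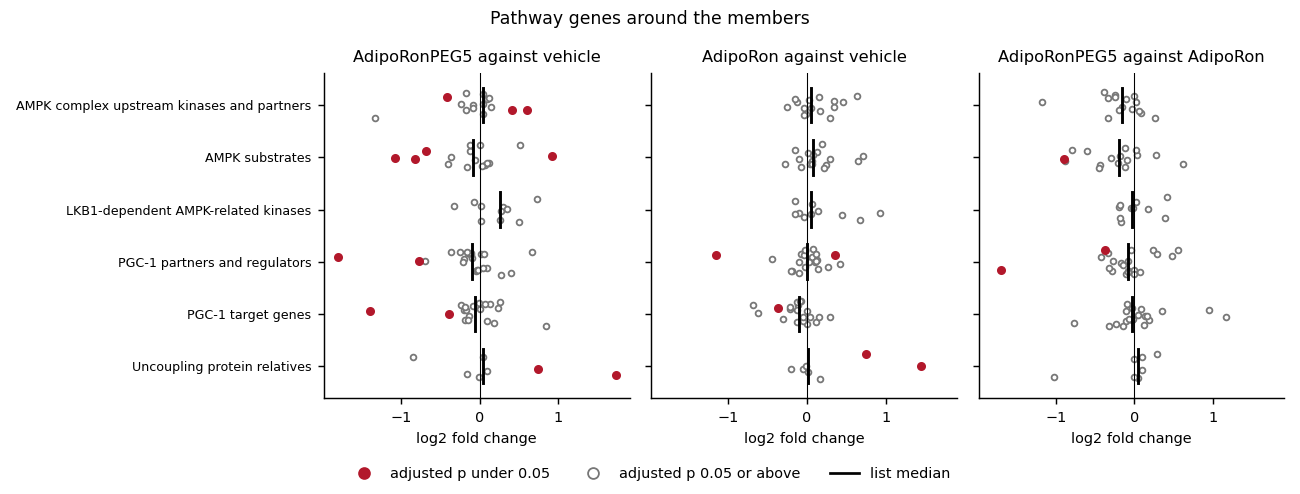
Log2 fold change (x axis) of the tested genes of each pathway list (rows) in the 3 comparisons. Each point is a gene, filled red where it passed at an adjusted p under 0.05, and the black bar is the median of the list. Medians lie near 0 in most lists, with the widest at 0.27 for the AMPK-related kinases with AdipoRonPEG5, and single genes such as Lpin1 (-1.80) and Slc25a30 (1.73) lie far out.

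The genes whose log2 CPM followed those of a member most closely over the 9 libraries were taken among 11121 genes with a mean of at least 1 CPM. For Ucp2 these were the carboxylesterase Ces2c (Pearson r = 0.973), the interleukin-18 binding protein Il18bp (0.973) and the choline transporter-like Slc44a2 (0.972). Ces2c averaged 77.4 ± 6.13 CPM with AdipoRonPEG5, 35.3 ± 2.53 CPM with AdipoRon and 18.8 ± 3.42 CPM with vehicle, an order in which the groups stand as they do for Ucp2. For Prkaa2 they were Tbc1d1, Rasgrp1 and Pak1 (0.957 each), for Ppargc1b Ddhd1 (0.975), Narf (0.962) and Mdc1 (0.946), and for Ppargc1a Ces1e (0.964), Acat1 (0.961) and Aldh6a1 (0.958). Tbc1d1, itself an AMPK substrate, averaged 6.47 ± 0.606 CPM with AdipoRonPEG5, 5.35 ± 0.555 CPM with AdipoRon and 3.38 ± 0.538 CPM with vehicle. Acat1, which handles acetoacetyl-CoA in ketone and isoleucine breakdown, averaged 442 ± 21.6 CPM with AdipoRonPEG5, 511 ± 60.2 CPM with AdipoRon and 541 ± 126 CPM with vehicle. These correlations are descriptions over libraries that fall into 3 groups, and the best of so many genes is high by selection.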

How the data were processed

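Liver RNA was measured in 9 libraries in 3 groups. Per the file headers, the authors deposited raw read counts per gene and FPKM. Dividing counts by library totals and deposited FPKM gave a gene length that was whole within 0.01 for 99.995% of values. FPKM served for levels and shares, and counts for all tests. The submitters' processing notes name HTSeq 0.6.1, STAR 2.5, TopHat, edgeR and DESeq2 without saying what each did. Genome build, annotation and strand setting are not given in the sources used here.

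In R 4.3.3, edgeR 4.0.16 fitted all 9 libraries with 3 group means (TMM, filterByExpr, quasi-likelihood F test). A gene was called below 0.05 after Benjamini-Hochberg adjustment over 13151 genes. DESeq2 1.42.0 and limma-voom (limma 3.58.1) were alternatives, with other scalings, no filter, 2 groups only, a replicate block and libraries left out. Simulated data served to test the fit. Same-numbered libraries correlated between -0.268 and 0.0772 in their deviations from group means, so numbers were not taken as pairs. Libraries of a group differed beyond sampling noise (chi-square per gene of 10.6 or more). Genes named besides the 10 were up to 3 called per list by lowest p, and the 3 best correlated with each called gene and Ppargc1a, passing over unnamed gene models. Of 169 listed symbols, 169 were found, 3 through an older symbol. The values of 1 called gene of the lists are not reported here. The members, lists, tests and alternatives were chosen with earlier results of these data known. RefSeq GRCm38.p6 gave promoters and GENCODE M21 overlaps, by symbol.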

Additional observations from a re-analysis of the deposited data

How the results depend on the processing

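Of 170 values of the 10 genes under the 17 alternatives in each comparison, 154, 163 and 159 kept their direction and their side of the threshold for AdipoRonPEG5 and then AdipoRon against vehicle and for the compounds against each other. Leaving out 1 library at a time gave log2 values of 1.49 to 1.80 for Ucp2 and 0.21 to 0.32 for Prkaa2 with AdipoRonPEG5 against vehicle, and -1.24 to -0.85 for Ppargc1b and 0.72 to 1.10 for Ucp2 between the compounds. Prkaa2 lost its call with no filter (0.26, adjusted p = 0.0719), only 2 groups (0.26), a replicate block (0.27, adjusted p = 0.0578), and without vehicle 3 and AdipoRonPEG5 1 (0.28). Ppargc1b lost its call with a replicate block (-1.05, adjusted p = 0.0693). Directions that turned, none of them called, were Prkab1 with total-count scaling (0.029), Prkag2 with AdipoRonPEG5, from -0.13 to 0.14 with 1 library left out, without AdipoRonPEG5 3 (-0.011), without vehicle 3 (-0.13) and without both vehicle 3 and AdipoRonPEG5 1 (-0.053), and Ppargc1a with AdipoRon, from -0.44 to 0.16, without vehicle 1 (0.16). Total-count scaling moved the median of all genes to 0.104 with AdipoRon. Genes called numbered 2260, 684 and 709 in the 3 comparisons. Without 1 library they numbered 1337 to 2334, 250 to 624 and 233 to 1032. With only 2 groups AdipoRon against vehicle had 325, and with a replicate block AdipoRon against vehicle had 444 and AdipoRonPEG5 against AdipoRon 338. The same-numbered libraries did not deviate together, so the replicate block is only a hint. Shares of Prkab2 from counts not divided by length differed by -0.886, 2.24 and -3.13 percentage points, against -0.417, 1.07 and -1.49 points from FPKM. Leaving out vehicle 3 moved the share difference of Ppargc1b against vehicle from 1.18 to 10.7 percentage points for AdipoRonPEG5 and from 11.4 to 20.9 points for AdipoRon. The lowest count was 29, for Prkab2, while the largest SE of a log2 fold change was 0.259, for Ppargc1a between the compounds.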
